A study of Mus musculus with 4 samples.

Results

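The 10 genes described here are Gclc, Gclm, Slc7a11, Txnrd1, Srxn1, Nqo1 and Sod2, which act against oxidants, and the metallothionein genes Mt1, Mt2 and Mt3. Their probes were found by name: all non-control probes that the scanner files assign to one of these symbols were taken. That gave 15 of the 56605 probes on the array, and 10 of the 27205 genes with a name. All 10 genes had a probe well above background on all 4 arrays, as did 13 of the 15 probes, and the 2 that did not are both Slc7a11 probes.

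The study compared transgenic mice, which the submitters call MSA Tg mice, with wild-type mice, all 24 weeks old, in brainstem/cerebellum and in spinal cord. All mice had a mixed background of C57BL/6, 129 and C3H. The sample titles carry the prefix PLP in both genotypes, and the labels used here do not spell out the transgene, its promoter, or how many animals gave a sample. Every genotype and tissue was measured on a single Agilent array in 1 colour, 4 arrays in all, so no difference below has a replicate check and none was tested.

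NRF2, encoded by Nfe2l2, is a transcription factor that KEAP1 holds at a low level in resting cells. Oxidants and electrophiles release it, and with a small MAF protein it binds antioxidant response elements in genes for glutathione synthesis, thioredoxin reduction and quinone detoxification. Metallothioneins are small cysteine-rich proteins that bind zinc and copper, and the zinc sensor MTF1 drives Mt1 and Mt2 through metal response elements. In brain and spinal cord Mt1 and Mt2 are known mainly from astrocytes, and Mt3 is the form typical of the nervous system.

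A level is the processed signal on the log2 scale, less the 75th percentile of its array, so that 0 is the brightness of the 75th percentile spot. In signal units this percentile was 463 (transgenic) and 445 (wild type) for brainstem/cerebellum, and 414 (transgenic) and 686 (wild type) for spinal cord. Between 59.2% and 64.0% of the 59305 non-control spots were well above background. A level depends on its probe, so levels of different probes are not set against each other. The error beside a difference is a technical SD from probes spotted repeatedly on each array, which fell from 0.51 for the dimmest probes to 0.09 for the brightest, and which leaves out differences between animals and hybridisations. The array of the wild-type spinal cord was on a slide of its own, and the other 3 shared one, so that slide and genotype cannot be told apart in spinal cord. The tissue was taken from the tissue label and the titles, while the source label reads brain for the spinal cord samples as well. Ttr, the choroid plexus transthyretin gene, was well above background on both brainstem/cerebellum arrays and on neither spinal cord array. Markers of oligodendrocytes, neurons and astrocytes were above background on all 4 arrays.

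Sequences of 250 bases before the annotated transcription start are shown first for the metallothioneins and for Gclm. In this window the neighbouring metallothionein genes differ in their matches to a metal motif, and Gclm holds an antioxidant match. The promoters are from RefSeq, build GRCm38.p6, 5′ to 3′ on the gene's strand, and end at the base before the start. The motif for the metal response element core was TGCACNC or TGCGCNC and that for the antioxidant response element core was TGACNNNGC, each searched on both strands. Capitals mark metal matches in Mt1 (chr8:94178839-94179088, plus strand), Mt2 (chr8:94172368-94172617, plus strand) and Mt3 (chr8:94152357-94152606, plus strand). In Gclm (chr3:122245307-122245556, plus strand) they mark the antioxidant match.
Mt1: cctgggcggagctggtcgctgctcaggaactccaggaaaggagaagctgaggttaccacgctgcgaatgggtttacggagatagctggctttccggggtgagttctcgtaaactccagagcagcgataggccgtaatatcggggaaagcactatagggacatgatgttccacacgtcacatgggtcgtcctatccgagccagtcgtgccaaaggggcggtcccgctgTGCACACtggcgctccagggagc
Mt2: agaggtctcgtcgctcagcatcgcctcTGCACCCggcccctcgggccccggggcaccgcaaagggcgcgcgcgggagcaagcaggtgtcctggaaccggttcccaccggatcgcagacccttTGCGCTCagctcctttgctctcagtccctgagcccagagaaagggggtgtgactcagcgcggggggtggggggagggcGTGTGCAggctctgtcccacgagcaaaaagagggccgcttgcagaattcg
Mt3: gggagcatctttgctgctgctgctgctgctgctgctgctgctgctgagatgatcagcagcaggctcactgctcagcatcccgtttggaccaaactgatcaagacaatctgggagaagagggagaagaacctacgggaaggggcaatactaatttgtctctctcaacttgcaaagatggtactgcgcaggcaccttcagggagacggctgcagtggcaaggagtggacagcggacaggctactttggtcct
Gclm: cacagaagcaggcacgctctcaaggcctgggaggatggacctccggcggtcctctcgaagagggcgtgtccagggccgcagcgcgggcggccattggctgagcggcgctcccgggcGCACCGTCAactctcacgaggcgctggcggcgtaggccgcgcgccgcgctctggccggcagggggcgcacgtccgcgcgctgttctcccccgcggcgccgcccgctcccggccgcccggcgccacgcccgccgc
Mt2 held 3 metal matches, at 50, 128 and 223 bases before the start, and an antioxidant match at 79 bases. Mt1 held 1 metal match, at 23 bases, and the window of Mt3 held neither motif. Gclm held its antioxidant match at 134 bases and 2 metal matches, at 72 and 138 bases, of which the one at 138 overlaps the antioxidant match. Of the 10 genes 9 matched a promoter in the table, all but Gclc, with 3 starts for Txnrd1. The antioxidant motif was present in 3 of the 9 (Gclm, Mt2 and 1 start of Txnrd1), against 10.2% of all 32851 promoters of 250 bases. Only exact matches counted, so that the similar letters tgagtcagc in Srxn1 did not. The metal motif was present in 4 of the 9 (Gclm, Mt1, Mt2 and Srxn1), against 21.4% of all promoters, and 1.26% of all promoters held at least 3 matches, as Mt2 does. These are matches of letters and not measured sites. Bases after the annotated start or further than 250 bases before it were not searched. A gene with few or no matches here can therefore hold more elsewhere. The counts of the 9 are per gene, with 11 promoters between them, while the percentages are per promoter.

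In brainstem/cerebellum none of the 10 genes differed by 2-fold between the genotypes. The differences, transgenic minus wild type on the log2 scale, ran from -0.51 for Sod2 to 0.40 for Nqo1 with a median of 0.07, 6 above 0 and 4 below. Among the 16949 genes above background on both arrays, 2.70% were at least 2-fold higher in the transgenic sample and 0.295% were 2-fold lower (2.99% either way), and the median was -0.06. Scaled on the array median instead, the median of all genes shifted to -0.24 and that of the 10 genes to -0.11, with Nqo1 and Mt2 alone above 0.

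In spinal cord 1 of the 10 genes, Nqo1, was at least 2-fold higher in the transgenic sample and none was 2-fold lower. The median was 0.16 and the range -0.44 to 1.13, with 8 genes above 0 and Sod2 and Mt1 below. Among 17243 genes, 8.47% were 2-fold higher and 6.42% 2-fold lower (14.9% either way), with a median of -0.05. The count of the 10 genes is therefore near the background. Scaled on spike-in control probes, the median of all genes shifted to -0.44, only Nqo1 and Txnrd1 of the 10 stayed above 0, and none reached 2-fold. Of all calls, 56.9% were higher under the main scaling and 23.3% under the spike-in scaling, and in brainstem/cerebellum 90.1% were higher under the main scaling and 76.0% under median scaling. The 10 genes came from whole tissue, in which fewer cells of a type and less RNA per cell cannot be told apart.

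**Figure D1:**
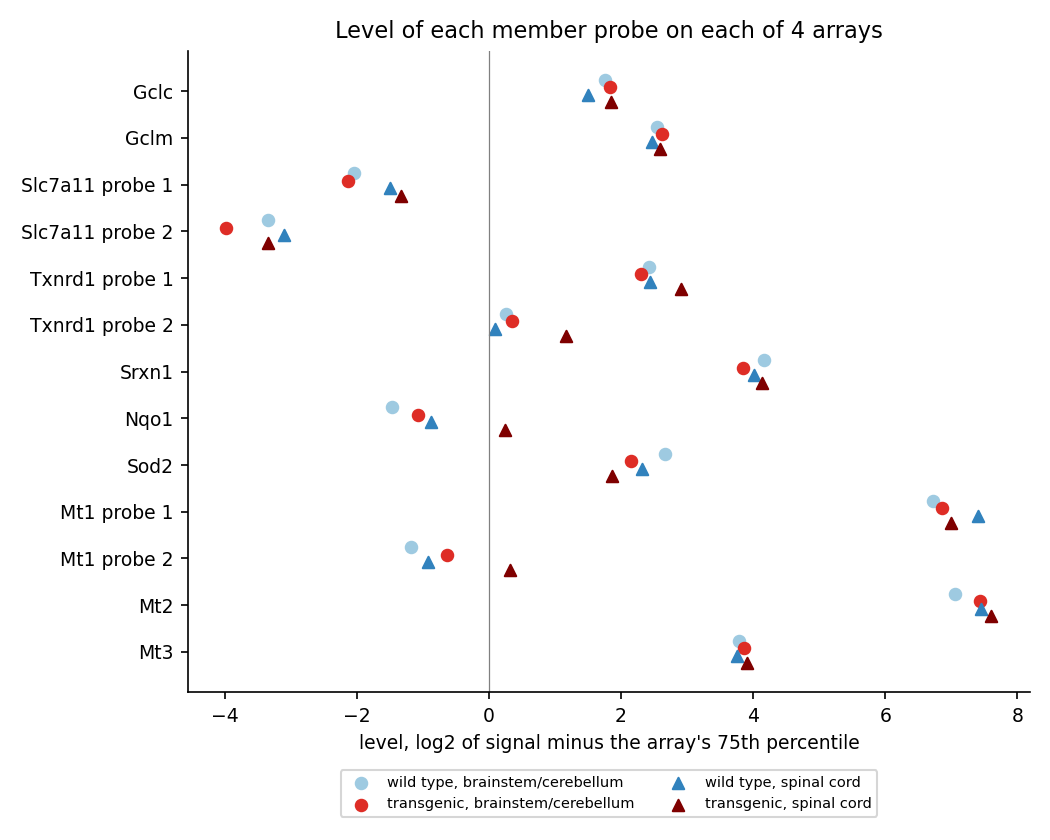
Level of each of the 13 probes above background on all 4 arrays (horizontal axis, log2 of the signal minus the 75th percentile of the array), 1 point per array, circles for brainstem/cerebellum and triangles for spinal cord. Nqo1 was highest in the transgenic spinal cord sample at 0.25, and Sod2 was higher in the wild-type than in the transgenic sample of each tissue.

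Glutathione supply was measured through Gclc and Gclm, the catalytic and modifier subunits of the enzyme that makes gamma-glutamylcysteine, and through Slc7a11, the cystine importer that feeds it. Gclc (probe at mm9 chr9:77641296-77641355) stood at 1.83 in the transgenic and 1.75 in the wild-type brainstem/cerebellum, and at 1.85 and 1.51 in spinal cord. The wild-type spinal cord was the lowest of the 4 samples, with the other 3 close together. The difference was 0.08 ± 0.10 (technical SD) in brainstem/cerebellum and 0.34 ± 0.10 in spinal cord, a ratio of 1.26. Under spike-in scaling the spinal cord difference was -0.05, and under median scaling the brainstem/cerebellum difference was -0.10.

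Gclm (mm9 chr3:121967737-121967796) stood at 2.62 and 2.55 in transgenic and wild-type brainstem/cerebellum and at 2.60 and 2.47 in spinal cord. The 4 samples were nearly level. The differences of 0.07 ± 0.09 and 0.13 ± 0.09 are of the size of the technical error, and turned to -0.11 under median scaling and to -0.26 under spike-in scaling, respectively.

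Slc7a11 has 4 probes. The brightest (mm9 chr3:50176047-50176106) stood at -2.13 and -2.04 in transgenic and wild-type brainstem/cerebellum and at -1.32 and -1.50 in spinal cord. Both spinal cord samples were above both brainstem/cerebellum samples. Between genotypes the difference was -0.09 ± 0.24 in brainstem/cerebellum and 0.18 ± 0.13 in spinal cord, the latter -0.21 under spike-in scaling. The second probe (mm9 chr3:50169700-50169759) stood at -3.97 and -3.34 in brainstem/cerebellum and at -3.34 and -3.09 in spinal cord, lower in the transgenic sample of both tissues. Its difference of -0.63 ± 0.24 in brainstem/cerebellum had 1.78% of genes below it, and it was -0.25 ± 0.24 in spinal cord. The third probe was above background in the transgenic spinal cord sample alone, and the fourth in no sample.

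Txnrd1, the cytosolic thioredoxin reductase, has 2 probes, and Nqo1, a quinone reductase long used as a readout of NRF2, has 1. The first 30 of the 60 bases of these probes are shown, since the 2 Txnrd1 probes gave unequal differences.
Txnrd1 probe 1: cctttcaagtctgccagtctctgagatcag
Txnrd1 probe 2: aatttgacaagaaagtgctggtcttggatt
Nqo1: taggtcatttatgcaatattcgccattttc
Txnrd1 probe 1 (mm9 chr10:82360230-82360289) stood at 2.30 and 2.43 in transgenic and wild-type brainstem/cerebellum and at 2.90 and 2.44 in spinal cord. Txnrd1 probe 2 (mm9 chr10:82338379-82338438) stood at 0.34 and 0.26 in brainstem/cerebellum and at 1.18 and 0.09 in spinal cord. On both probes the transgenic spinal cord sample was the highest and the other 3 lay close together. Probe 1 gave a spinal cord difference of 0.46 ± 0.09, a ratio of 1.37, and probe 2 gave 1.08 ± 0.10, a ratio of 2.12. In brainstem/cerebellum the differences were -0.13 ± 0.09 and 0.08 ± 0.10. Under spike-in scaling the spinal cord differences were 0.07 and 0.69.

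Nqo1 (mm9 chr8:109912440-109912499) stood at -1.07 in transgenic and -1.47 in wild-type brainstem/cerebellum, and at 0.25 and -0.88 in spinal cord. It was higher in the transgenic sample of each tissue, and higher in spinal cord than in brainstem/cerebellum within each genotype. The difference was 0.40 ± 0.13 in brainstem/cerebellum, a ratio of 1.32 with 89.5% of genes below it. In spinal cord it was 1.13 ± 0.13, a ratio of 2.19 with 92.9% of genes below it. Over the 5 alternative settings that can change the value of a gene with 1 probe, the spinal cord difference kept its sign, ran from 0.74 to 1.15, and reached 2-fold in 3. It was 0.74 under spike-in scaling and 0.99 under normexp background correction. The settings are not independent checks, since median and spike-in scaling shift all genes of an array alike. The authors' values also followed the quantile normalization.

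Srxn1, sulfiredoxin, which repairs overoxidised peroxiredoxins, stood at 3.85 and 4.17 in transgenic and wild-type brainstem/cerebellum and at 4.13 and 4.02 in spinal cord (mm9 chr2:151937009-151937068). The transgenic brainstem/cerebellum was the lowest of the 4. The difference of -0.31 ± 0.09 had 11.4% of genes below it and stayed negative in all 5 of these settings. In spinal cord the difference was 0.11 ± 0.09, and -0.28 under spike-in scaling.

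Sod2, the mitochondrial manganese superoxide dismutase, stood at 2.16 in transgenic and 2.67 in wild-type brainstem/cerebellum, and at 1.87 and 2.31 in spinal cord (mm9 chr17:13210864-13210923). With the brightest probe for each gene, it was the only one of the 10 lower in the transgenic sample of both tissues under each of the 5 settings. The second Slc7a11 probe was also lower in both tissues under each of them. The Sod2 difference was -0.51 ± 0.09 in brainstem/cerebellum, a ratio of 0.701 with 3.29% of genes below it. In spinal cord it was -0.44 ± 0.09, a ratio of 0.735, which is less far from the middle of all genes there, with 24.1% below it.

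The metallothionein genes lie next to each other on chromosome 8, and their probes share no run of more than 7 bases. Mt1 has 2 probes, which are shown by their first 30 bases because they differed in opposite directions in spinal cord.
Mt1 probe 1: cctgtttactaaacccccgttttctaccga
Mt1 probe 2: aactggctctgagaaatgtcctttgcttcc
Mt1 probe 1 (mm9 chr8:96704165-96704224), assigned by the scanner files to the curated transcript, stood at 6.86 and 6.72 in transgenic and wild-type brainstem/cerebellum and at 6.998 and 7.41 in spinal cord. Mt1 probe 2 (mm9 chr8:96703844-96703903), assigned to a predicted variant, stood at -0.63 and -1.18 in brainstem/cerebellum and at 0.32 and -0.93 in spinal cord. The wild-type spinal cord was the highest sample on probe 1, and the transgenic spinal cord was the highest on probe 2. In brainstem/cerebellum the differences were 0.14 ± 0.09 and 0.55 ± 0.13, and in spinal cord -0.41 ± 0.09 and 1.25 ± 0.13, a ratio of 0.753 against 2.38. The gap of 1.66 between the probes in spinal cord was larger than that of most genes with several probes, of which 2.30% had a larger one. The mean of both probes was 0.42 in spinal cord, so that the direction for Mt1 depends on the probe.

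Mt2 (mm9 chr8:96697371-96697430) stood at 7.44 and 7.05 in transgenic and wild-type brainstem/cerebellum and at 7.61 and 7.45 in spinal cord. The wild-type brainstem/cerebellum was the lowest sample and the other 3 lay close together. The difference was 0.39 ± 0.09 in brainstem/cerebellum, a ratio of 1.31 with 89.2% of genes below it, and positive in all 5 settings. In spinal cord it was 0.16 ± 0.09, and ran from -0.23 under spike-in scaling to 0.31 under quantile normalization. Mt3 (mm9 chr8:96677927-96677986) stood at 3.86 and 3.79 in brainstem/cerebellum and at 3.91 and 3.76 in spinal cord, nearly level. Its differences were 0.07 ± 0.09 and 0.16 ± 0.09, and turned to -0.10 under median scaling in brainstem/cerebellum and to -0.24 under spike-in scaling in spinal cord.

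**Figure D2:**
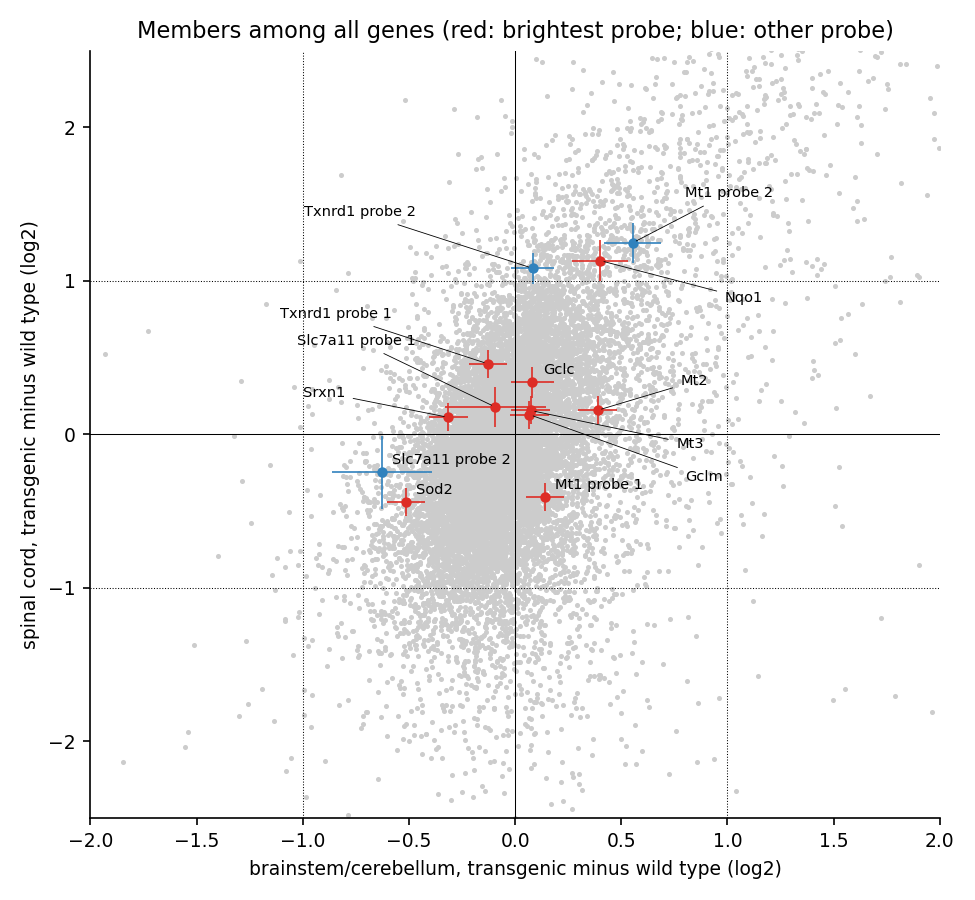
Difference between transgenic and wild type in brainstem/cerebellum (horizontal axis, log2) against that in spinal cord (vertical axis, log2); grey points are all genes above background, some of which lie outside the axes, red and blue points are probes of the 10 genes, bars are 1 technical SD and dotted lines mark 2-fold. Nqo1, at 0.40 and 1.13, and Mt1 probe 2, at 0.55 and 1.25, lie at the upper right, and Sod2, at -0.51 and -0.44, at the lower left.

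**Figure D3:**
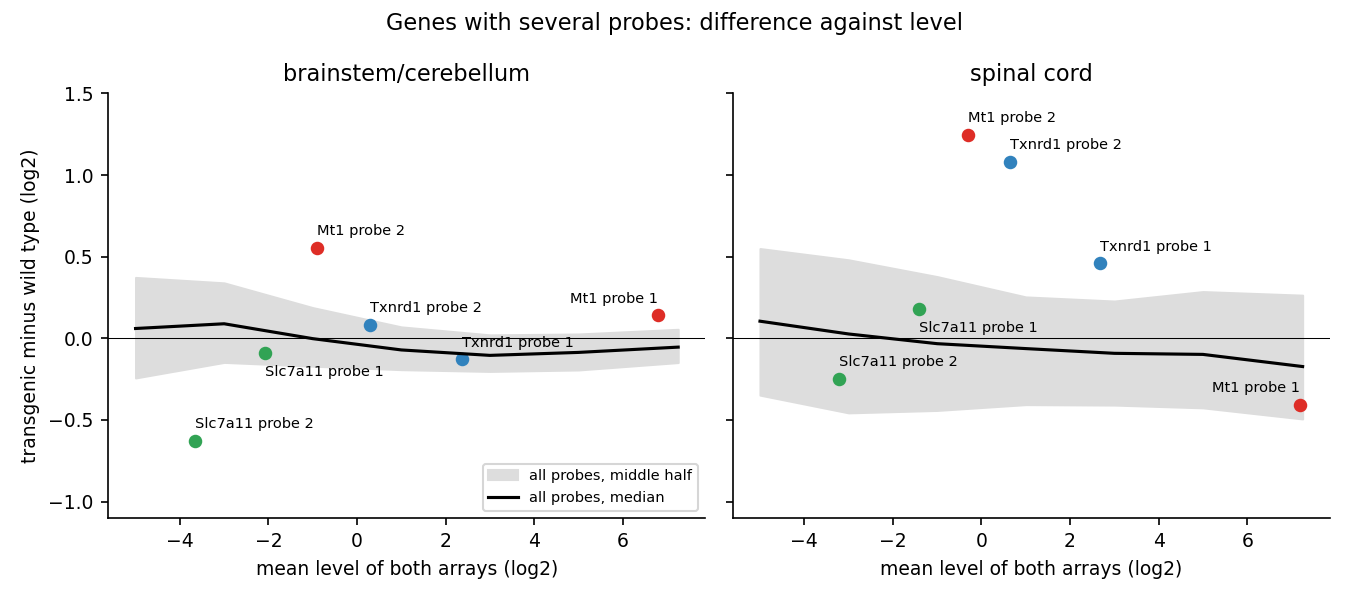
Difference between transgenic and wild type (vertical axis, log2) against the mean level of both arrays (horizontal axis, log2) for the genes with more than 1 probe, over the median (line) and interquartile range (grey) of all probes at that level. In spinal cord the median over all probes brighter than a level of 6 was -0.17, and Mt1 probe 1 lies at -0.41 and Mt1 probe 2 at 1.25.

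Spinal cord and brainstem/cerebellum were then compared within each genotype. Both transgenic arrays were on the shared slide, but in the wild type slide and tissue cannot be told apart. In the wild type none of the 10 genes differed by 2-fold between the tissues, where 6.76% of all genes reached 2-fold towards spinal cord and 4.24% towards brainstem/cerebellum. The largest wild-type differences among the brightest probes, spinal cord minus brainstem/cerebellum, were 0.68 for Mt1 probe 1, 0.59 for Nqo1, 0.54 for Slc7a11 and 0.40 for Mt2. In the transgenic samples Nqo1 alone reached 2-fold towards spinal cord, by 1.32, as did 1706 of all 17047 genes, with 6.25% the other way. Among the brightest probes Slc7a11 followed at 0.81 and Txnrd1 at 0.60, and of the other probes Mt1 probe 2 gave 0.95 and Txnrd1 probe 2 gave 0.83, while Sod2 was lower in spinal cord in both genotypes, at -0.36 in the wild type and -0.29 in the transgenic samples.

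Over the 4 arrays the genes nearest to Nqo1 in pattern, among 13588 genes above background and above the median signal, were Gadd45a, Adm, Slco2b1, Tmco4 and Ptgfrn, at distances of 0.03 to 0.08 between profiles centred on their means. Those nearest to Mt2 were BC005624, Naaa, BB166591, Traip and Rasl11b, at 0.06 to 0.09. Those nearest to Slc7a11 probe 1 were Pdlim5, Kif13b, Rtkn, Lpo and Mad2l2, at 0.05 to 0.06. With 4 arrays such nearness is a description alone.

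Of 9 regulators of NRF2 signalling, 1 was at least 2-fold higher in the transgenic brainstem/cerebellum and 3 in spinal cord, against 2.70% and 8.47% of all genes, with none 2-fold lower in either. Their medians were -0.06 and 0.24, the latter -0.15 with 1 gene 2-fold higher under spike-in scaling. Nfe2l2 itself stood at 1.20 and 1.11 in transgenic and wild-type brainstem/cerebellum and at 2.64 and 1.52 in spinal cord, highest in the transgenic spinal cord. The spinal cord difference was 1.12 ± 0.09, and 0.73 under spike-in scaling. The other Nfe2l2 probe gave 2.26, at lower levels of -1.81 in the transgenic and -4.08 in the wild-type spinal cord. Maff, a small MAF partner, stood at -1.39 and -2.52 in brainstem/cerebellum and at 0.52 and -2.01 in spinal cord, differences of 1.14 ± 0.13 and 2.53 ± 0.13. Its brainstem/cerebellum call was lost under median scaling, at 0.96, and under normexp, at 0.68. Mafk, another small MAF gene, differed by 0.57 and 1.22, Bach1, which competes with NRF2 for its elements, by 0.04 and 0.95, and Mafg by -0.31 and -0.26. Keap1 differed by -0.15 and 0.16.

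Of 22 other NRF2 target genes, 1 was at least 2-fold higher in brainstem/cerebellum and 2 in spinal cord, a share close to the 8.47% of all genes there, and none was 2-fold lower. The medians were 0.02 and 0.39. Under spike-in scaling the spinal cord median was -0.00, with 1 gene higher and 1 lower, and under median scaling 1 gene was lower beside the 2 higher. Hmox1, the heme-degrading enzyme, was called in both tissues and Cbr3 in spinal cord. Hmox1 stood at 1.25 against -0.31 in brainstem/cerebellum and 3.14 against -0.21 in spinal cord. Both transgenic samples were above both wild-type samples, by 1.56 ± 0.10 and 3.35 ± 0.10, the latter a ratio of 10.2. Its second probe was above background in the wild-type brainstem/cerebellum alone, and the mean of both probes was -1.20 in brainstem/cerebellum and 1.84 in spinal cord. The carbonyl reductase gene Cbr3 differed by 0.15 and 1.17, and Ephx1, an epoxide hydrolase gene, by 0.02 and 0.89. Ftl1, the ferritin light chain, differed by 0.55 and 0.76, with 1.97 on its other probe in spinal cord, and Gsta4, a glutathione transferase that clears lipid aldehydes, by -0.47 and -0.99.

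Of 14 other superoxide and peroxide enzymes none differed by 2-fold in either tissue, with medians of -0.02 and 0.00, the latter -0.39 under spike-in scaling. The nearest to it was Gpx1, a glutathione peroxidase, at 4.15 and 3.95 in brainstem/cerebellum and 5.08 and 4.08 in spinal cord, a ratio of 1.99. With the authors' values its spinal cord difference was 1.04, past 2-fold. Gpx3, the secreted form, differed by 0.23 and 0.76, Gpx7 by 0.25 and 0.65, and Gpx8 by -0.04 and 0.61. Prdx3, the mitochondrial peroxiredoxin, differed by -0.28 and -0.20, Sod3, the extracellular superoxide dismutase, by 0.42 and -0.18, and Cat, catalase, by -0.32 and 0.04. Of 7 NADPH oxidase subunits, the enzyme that makes superoxide in phagocytes, 6 were at least 2-fold higher in the transgenic sample of each tissue, with Cybb a bound in brainstem/cerebellum since it was not above background in the wild type. Cybb's other probe gave -0.06 there. Without Cybb the brainstem/cerebellum count was 5, and it was 4 under median scaling and 3 under normexp. The mean of probes gave 4 of all 7. Their medians were 1.48 over the 6 subunits above background on both arrays and 2.30 over all 7, the latter 1.91 under spike-in scaling. Ncf4 differed by 1.64 and 3.21, Cyba by 1.33 and 3.03, Ncf1 by 1.66 and 2.30, and Rac2 by 1.75 and 2.25, and Cybb differed by 2.69 in spinal cord. Nox4, which is not of the phagocyte enzyme, differed by 0.09 and -0.25, at low levels of -4.77 to -4.29. The mean of its probes gave 1.38 in spinal cord, and with the mean of probes all 7 subunits were at least 2-fold higher there.

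Of 11 genes of glutathione use and export, which include Gclc, none differed by 2-fold in brainstem/cerebellum and 2 were 2-fold higher in spinal cord, with medians of 0.01 and 0.27. In each of 6 alternative settings 1 was higher in spinal cord, and under spike-in scaling 1 was lower and the median was -0.12. Chac1, which breaks glutathione down, stood at 1.40 and 0.77 in brainstem/cerebellum and at 2.86 and 0.89 in spinal cord, differences of 0.63 ± 0.10 and 1.97 ± 0.10. Ggt5 differed by 1.02 in spinal cord, a call that every alternative lost, with 0.63 under spike-in scaling and -0.65 for the mean of its probes. Ggt1 differed by -0.35 and -0.50. Slc3a2, the heavy chain that pairs with Slc7a11, differed by 0.11 and 0.94, its other probes by -0.32 to 0.69 in spinal cord. Glrx, glutaredoxin, differed by -0.25 and -0.74.

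Of 16 genes of zinc and metal handling, 1 was 2-fold higher in brainstem/cerebellum, and in spinal cord 2 were higher and 1 lower, with medians of 0.02 and -0.07. Under spike-in scaling 1 was higher and 4 were lower in spinal cord, with a median of -0.46, and with the mean of probes the median was 0.21. Mtf1 stood at 1.84 and 1.90 in brainstem/cerebellum and at 1.92 and 1.88 in spinal cord, nearly level. Cp, ceruloplasmin, the copper ferroxidase, differed by 1.46 and 1.69, the largest of the list in both tissues. The zinc importer Slc39a1 differed by 0.28 and 1.08, Slc39a12 by -0.31 and -0.88, the exporter Slc30a10 by -0.42 and -1.24, and Slc30a3 by -0.46 and -0.74. Mt4, the epithelial metallothionein, was not above background in brainstem/cerebellum.

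**Figure D4:**
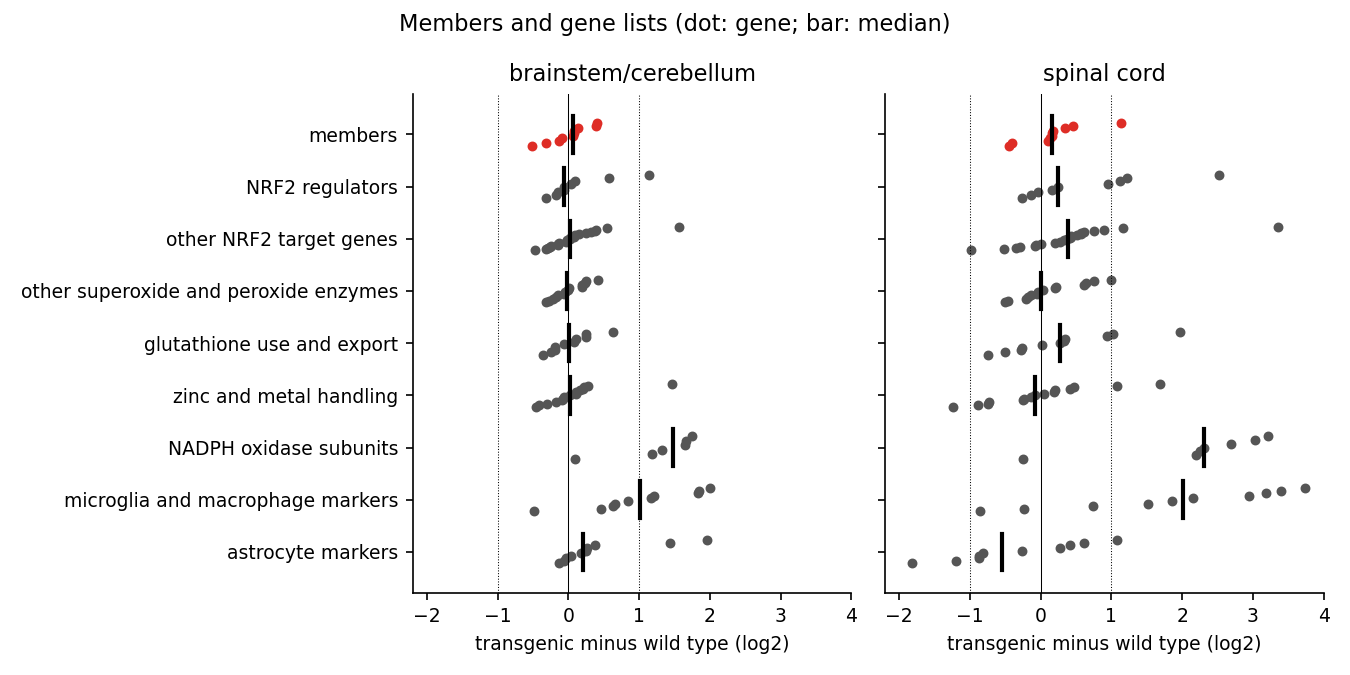
Difference between transgenic and wild type (horizontal axis, log2) for the 10 genes (red) and the genes of 8 lists (grey), 1 dot per gene above background on both arrays, with the median of each list as a bar and 2-fold as dotted lines. The 10 genes lie around 0 in both tissues, and the NADPH oxidase subunits and the microglia and macrophage markers lie to the right, with spinal cord medians of 2.30 and 2.01.

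Marker genes of several cell types differed between the genotypes as well. Of 10 microglia and macrophage markers, 5 were at least 2-fold higher in the transgenic brainstem/cerebellum and 7 in the transgenic spinal cord. Among all genes 2.70% and 8.47% were. None of the 10 markers was 2-fold lower, and the medians were 1.01 and 2.01. Their summed level was 6.07 against 4.90 in brainstem/cerebellum and 7.94 against 5.55 in spinal cord, highest in the sample in which Nqo1 and Hmox1 were highest. All 10 were above background on all 4 arrays. Over 6 alternative settings 4 to 7 were higher in brainstem/cerebellum and 7 in spinal cord, with 1 lower there under spike-in scaling. Of 10 astrocyte markers, also all above background, 2 were 2-fold higher in the transgenic brainstem/cerebellum, and in spinal cord 1 was 2-fold higher and 2 were 2-fold lower, with medians of 0.21 and -0.54. Over the 6 settings 0 to 1 were higher and 1 to 5 lower in spinal cord, with medians of -0.93 to -0.24. One of the lower calls was Gja1, at -1.81 in spinal cord and 1.97 in brainstem/cerebellum on its brightest probe, and its other probes gave -0.43 to -0.41 and -0.26 to 0.52. The summed level of the astrocyte markers was 8.35 against 8.25 in brainstem/cerebellum and 8.47 against 9.02 in spinal cord, higher in the transgenic sample of the first and lower in that of the second. Mt1 probe 1 had these directions under the main scaling, but was at -0.04 in brainstem/cerebellum under median scaling. Mt1 probe 2 and Mt2 were higher in the transgenic sample of both tissues under the main scaling. Mt2 was at -0.23 in spinal cord under spike-in scaling. On their brightest probes all 8 neuron markers were below 0 in spinal cord, from -1.15 to -0.21 with a median of -0.50. Other probes there gave 0.66 for Stmn2 and -0.25 to 0.26 for Syt1, while those of Rbfox3, Snap25, Map2 and Nefl were below 0. The part of any cell type in the differences of the 10 genes was not tested.

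**Figure D5:**
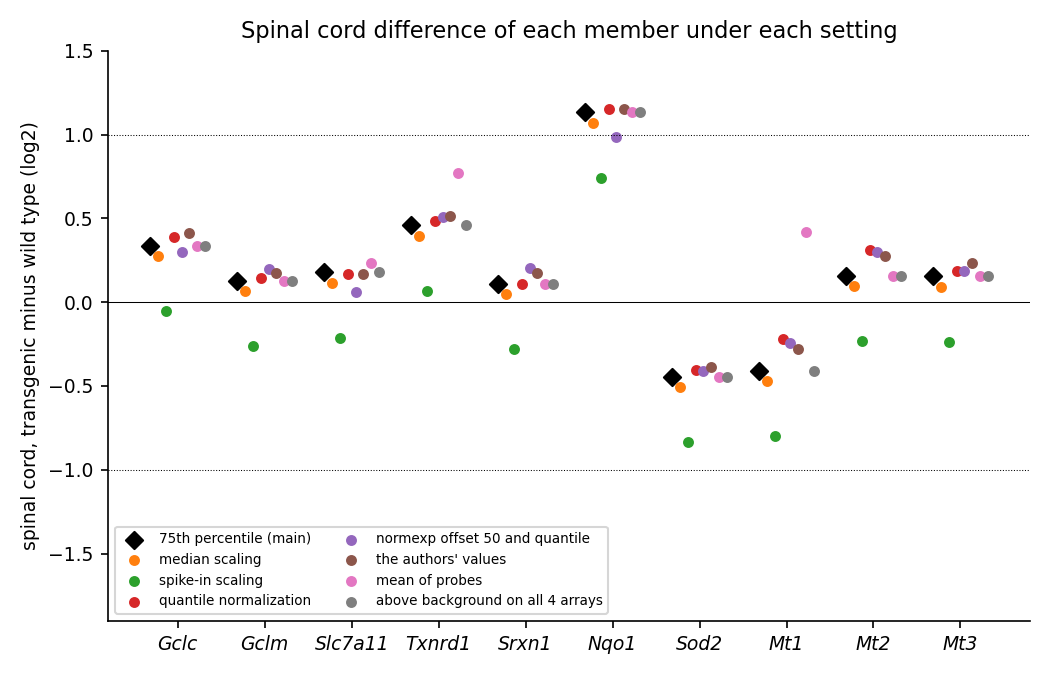
Spinal cord difference between transgenic and wild type (vertical axis, log2) of each of the 10 genes under the main scaling (black diamond) and 7 alternatives (coloured points), of which the filter over all 4 arrays, and for genes with 1 probe the mean of probes, return the main value by construction; dotted lines mark 2-fold. Nqo1 lay between 0.74 and 1.15 and Sod2 was below 0 throughout, and Mt1 ran from -0.80 to 0.42.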

How the data were processed

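Total RNA of 4 samples was amplified, labelled with Cy3 and hybridised to 1 array each, per the labels' protocols. The values in the deposited scanner files are linear spot intensities, background-subtracted and detrended within each array per the file headers, from Agilent Feature Extraction. Its version is 10.7.1.1 per the file headers and 9.5.1.1 per the submitters' processing notes. The authors' value table holds intensities as well. The sources used here do not give its normalization, but all columns had a median of 30.4 and followed a quantile normalization computed here (Pearson r of 0.99998), which settles scale, centring and direction.

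The values used here are log2 of the deposited processed intensity minus the 75th percentile of each array. Control spots and outlier-flagged spots (63 to 134 per array) were left out and no non-control spot was saturated. Spots of 1 probe were averaged, and a gene was represented by its brightest probe on average. Of 56605 probes, 46343 were named, 33905 of them by accession through a RefSeq gene table of GRCm38.p6, and 10262 were not. Probe coordinates are those of the files, in mm9. No genome of that build was used, so exon and UTR positions are not given.

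Counts are of genes well above background on both arrays of a comparison with a difference of at least 2-fold. Members of gene lists also counted when above background on 1 array and at least 2-fold above a bound, which is the lowest signal well above background on the dim array or the probe's own signal there, whichever is higher. The 10 genes, the 16 lists and their named members (the 4 largest differences in spinal cord and 3 in brainstem/cerebellum, and Nfe2l2, Keap1, Hmox1 and Mtf1) were chosen with earlier results of these data known. Nox4, Mt4, Ttr and Ccr2 were named after their values were seen. The technical SD came from 300 repeated probes and the spike-in probes, and was not itself tested. Of the values of a probe on an array, 1168 lay above a level of 2 and 28 from 0 to 2. Only 13 lay from -2 to 0, on which the SD for Nqo1 rests, and 11 from -4 to -2. The scaling and the 2-fold calls were tested on simulated data. Tools were R 4.3.3 with limma 3.58.1, pandas 2.3.3 and numpy 2.4.6. Alternatives were median scaling, spike-in scaling, quantile normalization, normexp with an offset of 50, the authors' values, the mean of all probes of a gene above background on at least 1 array, a filter over all 4 arrays, and thresholds of 1.5-fold and 3-fold. A planned comparison of metallothionein proteins was not analysed here.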

Additional observations from a re-analysis of the deposited data

Results flagged for a closer look

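For 3 of the 10 genes the brightest probe had opposite signs in the tissues, with a gap of more than 2 technical SDs between the tissues. The smaller of each pair of differences was 1.21 to 1.55 technical SDs from 0, which does not settle its sign. Each tissue rests on 1 array per genotype, the array of the wild-type spinal cord was on a slide of its own, and the difference between the tissues was not tested. For Txnrd1 probe 1 the difference between transgenic and wild type was -0.13 in brainstem/cerebellum and 0.46 in spinal cord, which is 0.59 apart. Under spike-in scaling this difference was only -0.07 and 0.07. For Srxn1 the difference was -0.31 and 0.11 under the main scaling, 0.42 apart, and under spike-in scaling both were negative, at -0.26 and -0.28. For Mt1 probe 1 it was 0.14 and -0.41, so that the spinal cord difference minus the brainstem/cerebellum difference was -0.55. Mt1 probe 2 did not share this, at 0.55 and 1.25.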

How the results depend on the processing

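No paired analysis was possible because each group has 1 array and the titles carry no replicate numbers. With 1 array per group no replicate could be left out either. Nqo1, the gene with a 2-fold call, stayed higher in the transgenic spinal cord under all 5 alternatives that can change its value. These alternatives are not independent of each other. In spinal cord the count of the 10 genes at least 2-fold higher was 0 under spike-in scaling, normexp and the 3-fold threshold, and their median was -0.23 under spike-in scaling. In brainstem/cerebellum their median was -0.11 under median scaling. Among all genes in brainstem/cerebellum, 189 were higher under normexp, 1089 at 1.5-fold and 160 at 3-fold, and the lower ones were 103 under median scaling, 87 under quantile normalization, 14 under normexp, 85 with the authors' values, 377 at 1.5-fold and 10 at 3-fold. In spinal cord 878 genes were higher and 2885 lower under spike-in scaling, 920 and 546 under normexp, 2793 and 3058 at 1.5-fold, and 719 and 299 at 3-fold. The thresholds change these counts by their construction, and for the other settings the cause was not tested. The 7 spike-in probes differed by -0.18 to 0.67 between the spinal cord arrays. Signal over background limits Slc7a11 most, with 2 of its 4 probes not above background on all arrays.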

Other observations

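The other marker lists gave the following values, transgenic against wild type. Of 8 mature oligodendrocyte markers none differed by 2-fold in brainstem/cerebellum and 1 was higher in spinal cord, with medians of 0.06 and 0.24, the latter -0.15 under spike-in scaling. Of 8 neuron markers none differed by 2-fold in brainstem/cerebellum and 1 was lower in spinal cord, with medians of -0.20 and -0.50, and under spike-in scaling 2 were lower in spinal cord with a median of -0.89. Of 7 endothelial and pericyte markers none differed by 2-fold in either tissue, with medians of -0.23 and -0.40, and under spike-in scaling 2 were lower in spinal cord with a median of -0.79. Of 7 meningeal and fibroblast markers 1 was 2-fold higher in brainstem/cerebellum and 2 in spinal cord, with medians of 0.32 and 0.05, and under spike-in scaling 1 was higher and 1 lower in spinal cord with a median of -0.34.

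Of 8 infiltrating myeloid markers 1 was 2-fold higher in brainstem/cerebellum, and in spinal cord 1 was higher and 1 lower, each against a bound. Ccr2, the receptor that marks recruited monocytes, was not above background on any of the 4 arrays. Choroid plexus markers had medians of 0.04 and -0.26, ependymal markers -0.24 and 0.13, and blood markers -0.23 and 0.43, with 1 choroid plexus and 1 ependymal marker 2-fold lower in spinal cord. Under spike-in scaling the spinal cord medians of these were -0.65, -0.26 and 0.03, with 2 choroid plexus markers lower.

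Probes of 1 gene disagreed by 1 or more on the log2 scale in spinal cord for 641 of 6923 genes with at least 2 probes above background on all arrays (9.26%), and for 103 (1.49%) in brainstem/cerebellum. Among the genes described here, Mt1 is one of the 641. Nfe2l2 is another, with a gap of 1.14 in spinal cord.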
